A study of Arabidopsis thaliana with 12 samples.

Results

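Genes of the MYB transcription factor family that do not regulate glucosinolates were examined in wild-type Arabidopsis seedlings exposed to hypoxia, to flg22 or to both. The members were the genes of the read count table whose symbol is MYB followed by a number, without the 6 glucosinolate regulators MYB28, MYB29, MYB34, MYB51, MYB76 and MYB122, and with a mean of at least 10 read counts over the 12 samples. Of 98 genes with such a symbol, 92 remained without the glucosinolate regulators, and 63 of these, among 23396 genes listed, reached the mean of 10. The other 29 had means from 0.08 to 9.33 counts and were not described further. They included the anthocyanin activator MYB90, the flavonol activator MYB111, the suberin regulators MYB41 and MYB107 and the stamen genes MYB21 and MYB57. MYB genes listed under another symbol fell outside this selection, among them MYB44, which is listed as MYBR1.

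All samples were wild-type Col-0, taken as whole seedlings, and came in 4 groups of 3 biological replicates. Mock-treated seedlings were kept in normoxia (NM, normoxia/mock) or placed in hypoxia (HM, hypoxia/mock), as were those given flg22 (NF for normoxia/flg22, HF for hypoxia/flg22). A sample held 5 seedlings, 10 days old, grown in continuous light and moved to liquid medium on the day before treatment. Mock was an equal volume of water, normoxia was ambient oxygen, hypoxia was applied in anaerojars, and flg22, a peptide of bacterial flagellin that is perceived by the receptor FLS2, was used at 100 nM. The treatments were started together and lasted 1 h.

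The total count per sample was between 21307650 and 21554050. The summed level of 5 hypoxia response genes (AT4G33070, which is PDC1, HB1, ADH1, LBD41 and ERF73), in counts scaled to the normalized library size (CPM), was 46.9 to 55.8 in NM, 437 to 1480 in HM, 81.3 to 210 in NF and 1210 to 3450 in HF. HM replicate 2, with 437 against 1480 and 1060 in the other HM samples, stood below them. All 5 were DEGs, as defined below, in HF vs NM and none in HM vs NM. LBD41 was also a DEG after flg22 alone (NF vs NM log2FC 2.16, adjusted p = 0.0489 in edgeR), at 37.8, 155 and 52.7 CPM in NF replicates 1 to 3. The summed level of 4 flg22 response genes (WRKY33, WRKY29, FRK1 and FMO1) was 37.4 to 116 CPM in NM, 72 to 668 in HM, 682 to 1890 in NF and 1440 to 1730 in HF. Most of this sum was WRKY33. WRKY33 and WRKY29 were DEGs in NF vs NM and HF vs NM, while FRK1 and FMO1 were called in neither. FRK1 was at 0.377, 0.79 and 38.3 CPM in NM replicates 1 to 3 and 2.53, 0.351 and 46.4 in HM. It was at 2.26, 20 and 65.5 CPM in NF and 2.25, 11.6 and 17.7 in HF. WRKY33, a defence regulator, was at 26.3 to 60 CPM in NM, 647, 60.8 and 165 in HM replicates 1 to 3, 635 to 1740 in NF and 1360 to 1680 in HF. The leaf markers were present in every sample, with summed levels of 30000 to 44600 CPM. The summed level of 5 root markers was 98.9, 20.9 and 35.2 CPM in NM replicates 1 to 3 and 96.1, 36.7 and 36.8 in NF. It was 41.4, 30.3 and 26.0 CPM in HM and 57.0, 42.0 and 46.0 in HF, so that replicate 1 was the highest in each group. Of 4 seed storage genes 1 was tested, and it was at 0.135 to 3.76 CPM.

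Most MYB proteins of plants carry the R2 and R3 repeats of the MYB domain, which together bind DNA, and differ in the remainder of the protein. They are grouped into subgroups (S1 to S25) by conserved motifs outside this domain, and members of a subgroup often act in the same process, such as lignin and other phenylpropanoids, cuticular wax, suberin, epidermal cell fate or responses to abscisic acid. In pattern-triggered immunity the best known member is MYB15, which activates lignin genes upon flg22 perception, while MYB30 is a positive regulator of the hypersensitive cell death response.

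The promoters of 4 members that the results turn on are shown because 2 of them, MYB2 and MYB15, were higher after flg22, and MYB77 and MYB96 after the combined treatment. The W-box, the site bound by WRKY transcription factors, was searched as TTGACC or TTGACT on both strands in the 250 bases before the start of each gene (RefSeq annotation of TAIR10.1, whose nuclear chromosomes have the sequence of TAIR10). The windows were chr2:19375735-19375984 on the plus strand for MYB2 (AT2G47190), chr3:8308959-8309208 on the plus strand for MYB15 (AT3G23250), chr3:18559327-18559576 on the minus strand for MYB77 (AT3G50060) and chr5:25081142-25081391 on the minus strand for MYB96 (AT5G62470). No other gene is annotated within these windows. Each sequence is written in the direction of its gene, with W-box letters in capitals, which read AGTCAA or GGTCAA where the box lies on the other strand.
MYB2: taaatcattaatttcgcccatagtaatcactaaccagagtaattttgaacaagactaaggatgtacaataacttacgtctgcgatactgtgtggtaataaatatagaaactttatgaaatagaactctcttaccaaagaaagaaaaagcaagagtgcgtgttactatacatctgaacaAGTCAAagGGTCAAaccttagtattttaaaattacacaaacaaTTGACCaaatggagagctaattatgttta
MYB15: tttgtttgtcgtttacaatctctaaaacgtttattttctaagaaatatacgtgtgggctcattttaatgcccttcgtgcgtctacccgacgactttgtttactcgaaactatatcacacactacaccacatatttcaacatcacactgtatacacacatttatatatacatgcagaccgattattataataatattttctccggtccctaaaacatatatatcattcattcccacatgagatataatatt
MYB77: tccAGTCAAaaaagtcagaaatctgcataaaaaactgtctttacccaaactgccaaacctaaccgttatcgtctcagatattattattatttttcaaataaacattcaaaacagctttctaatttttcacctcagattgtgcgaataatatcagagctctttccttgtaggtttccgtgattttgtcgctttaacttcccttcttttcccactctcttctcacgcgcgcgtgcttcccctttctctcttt
MYB96: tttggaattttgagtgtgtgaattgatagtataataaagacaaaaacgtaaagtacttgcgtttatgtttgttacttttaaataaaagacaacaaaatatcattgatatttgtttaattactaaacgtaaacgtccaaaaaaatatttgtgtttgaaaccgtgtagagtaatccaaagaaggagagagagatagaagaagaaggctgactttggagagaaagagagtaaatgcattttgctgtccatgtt
MYB2 held 3 W-box matches, at 72 to 67, 64 to 59 and 29 to 24 bases before the gene start, and MYB77 held 1, at 247 to 242 bases. The windows of MYB15 and MYB96 held no such letters. A W-box was found in 15 of the 63 members (23.8%) and in 28.4% of 27443 promoters of protein-coding genes of the same length. Among the 8 members called in any comparison below, MYB2, MYB37, MYB77 and MYB102 held one.

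All 63 members were among the 20074 genes that entered the quasi-likelihood test of edgeR, fitted once to all samples. A gene was called a DEG at a Benjamini-Hochberg adjusted p under 0.05, taken over all genes tested, together with a log2 fold change (log2FC) of more than 0.585 in either direction. This was met in at least 1 comparison by 8 members, which were MYB2, MYB15, MYB16, MYB37, MYB70, MYB77, MYB96 and MYB102. In NF vs NM 2 members were higher and none lower (3.17% of the 63, against 7.07% of all genes tested, of which 6.43% higher and 0.638% lower). In HF vs NM 5 were higher and 1 lower (9.52% against 10.4%, of which 7.85% higher and 2.59% lower), and in HF vs HM 1 was higher and 1 lower (3.17% against 4.38%, of which 3.84% higher and 0.543% lower). HM vs NM and HF vs NF had no DEG in this fit among the members or among all genes (0.0%). DESeq2 on all samples, an alternative given below, called 0.841% and 0.522% of all genes there. All 3 samples of the treated group lay above all 3 of NM for 3 members in HM vs NM (5.54% of all genes), 8 in NF vs NM (12.3% of all genes) and 14 in HF vs NM (14.8% of all genes). They lay below NM for 1 member in HM vs NM (4.75% of all genes), 7 in NF vs NM (9.22% of all genes) and 6 in HF vs NM (12.4% of all genes). The median log2FC of the members was -0.06 for HM vs NM, 0.12 for NF vs NM and -0.07 for HF vs NM, beside 0.01, -0.03 and -0.05 for all genes. When only the library size was used for scaling, the median of all genes moved to -0.11, -0.17 and -0.32 in these comparisons, and the calls were 2 higher and 3 lower in NF vs NM, 4 higher and 5 lower in HF vs NM and 1 higher and 4 lower in HF vs HM. These were 7.94%, 14.3% and 7.94% of the members, against 7.3%, 13.9% and 4.39% of all genes under that scaling. All 8 members had the same direction of change under both scalings in the comparison in which they were called. In whole seedlings, fewer cells of a type and less RNA per cell cannot be told apart.

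**Figure D1:**
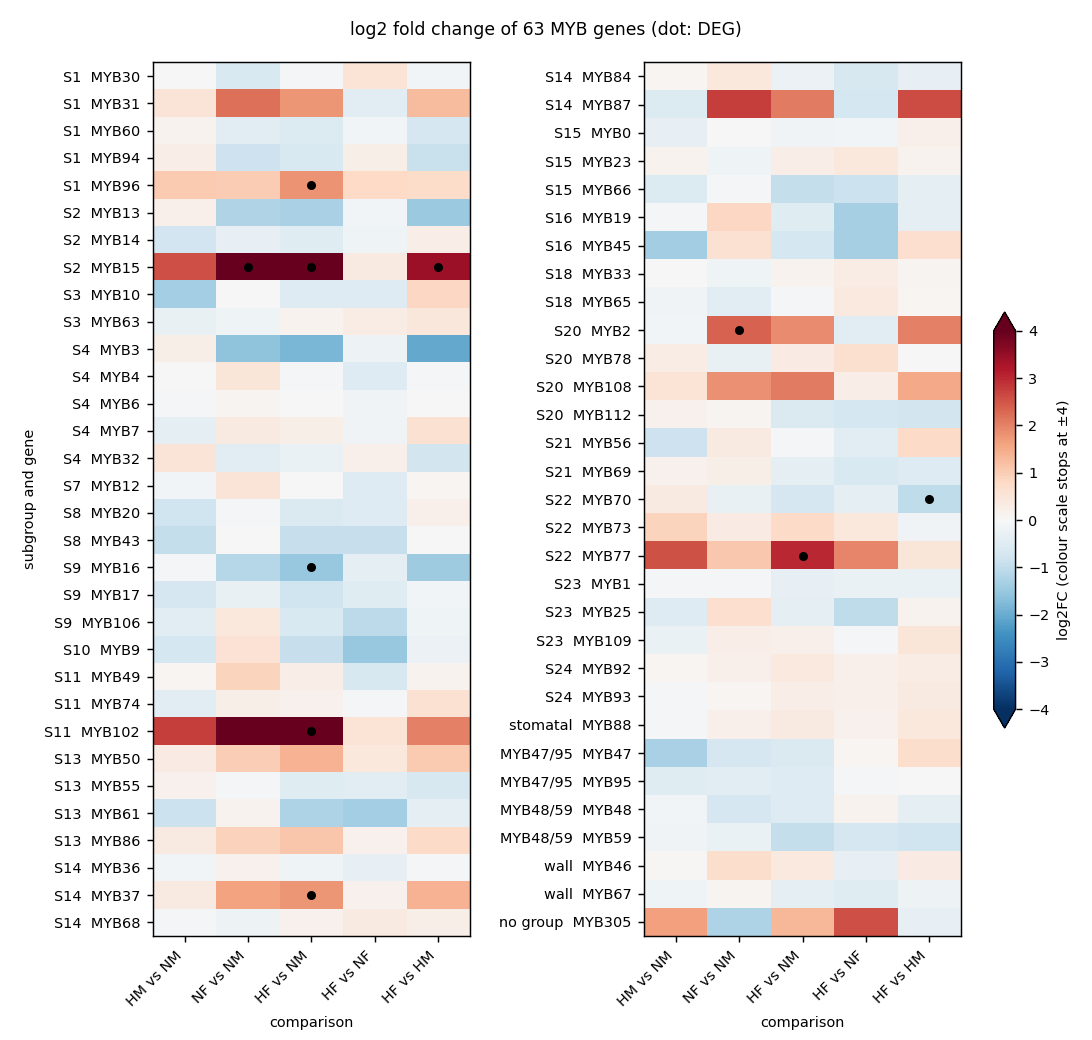
Log2FC (colour) of the 63 MYB genes, in rows ordered by subgroup, in the 5 comparisons of groups (columns), with a black dot where a gene was a DEG. Within a comparison the dots fall on single members of their subgroups, S22 having MYB77 marked in HF vs NM and MYB70 in HF vs HM. MYB15 is marked in 3 comparisons, and no dot falls in HM vs NM or HF vs NF.

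The subgroup S2 gene MYB15 was the member with the highest log2FC in NF vs NM and also in HF vs NM. It was at 0.868, 0.418 and 1.16 CPM in NM replicates 1 to 3, 6.27, 0.954 and 7.42 in HM, 20.5, 41.3 and 62.3 in NF and 44.7, 52.9 and 60 in HF. All flg22-treated samples lay above all mock samples, and HM replicate 2 lay within the range of NM. MYB15 rose in NF vs NM (log2FC 5.64, SE 0.74, adjusted p = 0.00261) and in HF vs NM (5.99, SE 0.75, adjusted p = 0.00173), and these calls held with each of the 12 samples left out in turn. In HM vs NM its log2FC was 2.57 (SE 0.68, adjusted p = 0.478). HM replicate 2 was also the lowest HM sample for the hypoxia marker sum (437 CPM) and for WRKY33 (60.8 CPM). Without this sample MYB15 was called in HM vs NM (log2FC 3.05, adjusted p = 0.0355). That fit called 55 genes (0.27% of all genes), against 0 with all samples. As HM replicate 2 held the lowest HM value of MYB15, leaving it out was bound to raise the log2FC. Leaving out any other single sample called no member in HM vs NM.

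The other S2 members did not follow MYB15. MYB13, which like MYB15 is known from cold and wounding responses, was at 13.3, 31.1 and 26.6 CPM in NM, 15.1, 30.6 and 36.6 in HM, 7.45, 12.2 and 11.5 in NF and 10.8, 10.3 and 7.92 in HF. All its flg22-treated samples lay below all its mock samples. Its log2FC was -1.19 in NF vs NM (adjusted p = 0.0962) and -1.29 in HF vs NM (adjusted p = 0.0532), so it was not called. When the replicate number was added as a block, MYB13 was a DEG in NF vs NM (log2FC -1.15, adjusted p = 0.0256). The block was tried because same-numbered NM and NF samples deviated together. NF replicate 3, however, did so more with NM replicate 2 (r = 0.427) than with NM replicate 3 (0.314). MYB14 was at most at 1.66 CPM in any sample, with a log2FC of -0.32 in NF vs NM (adjusted p = 0.935).

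MYB2, a subgroup S20 gene known from drought, abscisic acid and low-oxygen induction of ADH1, was the other DEG of NF vs NM. It was at 0.189, 1.3 and 0.647 CPM in NM, 0.472, 0.753 and 0.72 in HM, 1.89, 5.16 and 3.84 in NF and 2.75, 2.27 and 2.88 in HF. Both flg22 groups lay above both mock groups without overlap. MYB2 rose in NF vs NM (log2FC 2.35, SE 0.59, adjusted p = 0.0355) and had a log2FC of 1.89 in HF vs NM (adjusted p = 0.0677) and of -0.12 in HM vs NM (adjusted p = 0.988). The call in NF vs NM was lost without NM replicate 1 or 3, HM replicate 3, NF replicate 2 or 3, or HF replicate 1 or 3, with adjusted p up to 0.148, and with the replicate block the adjusted p was 0.0086. Of the other S20 members, MYB108, which is known from cell death around wounds and upon infection, was at 1.02 to 2.42 CPM in NM and at 1.36, 8.04 and 7.48 in NF. It had a log2FC of 1.83 in NF vs NM (adjusted p = 0.15) and 2.09 in HF vs NM (adjusted p = 0.0705). MYB78 and MYB112 had log2FC between -0.58 and 0.33 in the 3 comparisons with NM.

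MYB102 belongs to subgroup S11, a group known from osmotic stress, wounding and suberin, and was nearly absent from NM. Its read counts were 1, 2 and 5 in NM, 3, 24 and 24 in HM, 4, 60 and 70 in NF and 33, 107 and 45 in HF. Only the HF samples all lay above all NM and HM samples, and replicate 1 was the lowest of its group in each of the 4 groups. MYB102 rose in HF vs NM (log2FC 4.78, SE 1.21, adjusted p = 0.0278), a value that depends on the few NM counts. This call was lost without HF replicate 2 or without any NM replicate, with adjusted p up to 0.101. In NF vs NM its log2FC was 4.22 (adjusted p = 0.0619), and with the replicate block it was a DEG there (3.96, adjusted p = 0.00876). MYB49 and MYB74 of the same subgroup had log2FC of 0.89 and 0.22 in NF vs NM (adjusted p = 0.127 and 0.961).

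MYB37 (RAX1), an axillary meristem regulator of subgroup S14, was at 0.943, 1.07 and 1.64 CPM in NM, 1.89, 0.853 and 1.98 in HM, 1.6, 4.23 and 5.36 in NF and 4, 4.65 and 3.89 in HF. The HF samples all lay above all NM and HM samples, while NF replicate 1 lay within the mock range. MYB37 rose in HF vs NM (log2FC 1.78, SE 0.47, adjusted p = 0.0341), but the call was lost without any NM or HF replicate or NF replicate 2 (adjusted p up to 0.116) and under scaling by library size only. Its log2FC in NF vs NM was 1.61 (adjusted p = 0.0688) and became a call with the replicate block (1.57, adjusted p = 0.0436). MYB36, which drives the differentiation of the endodermis, and MYB68 and MYB84, both expressed in roots, had log2FC between -0.24 and 0.41 in the 3 comparisons with NM. MYB87 had 0 to 14 read counts per sample in NM and HM and 13 to 46 in NF and HF, and was not called (NF vs NM log2FC 2.77, adjusted p = 0.141).

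**Figure D2:**
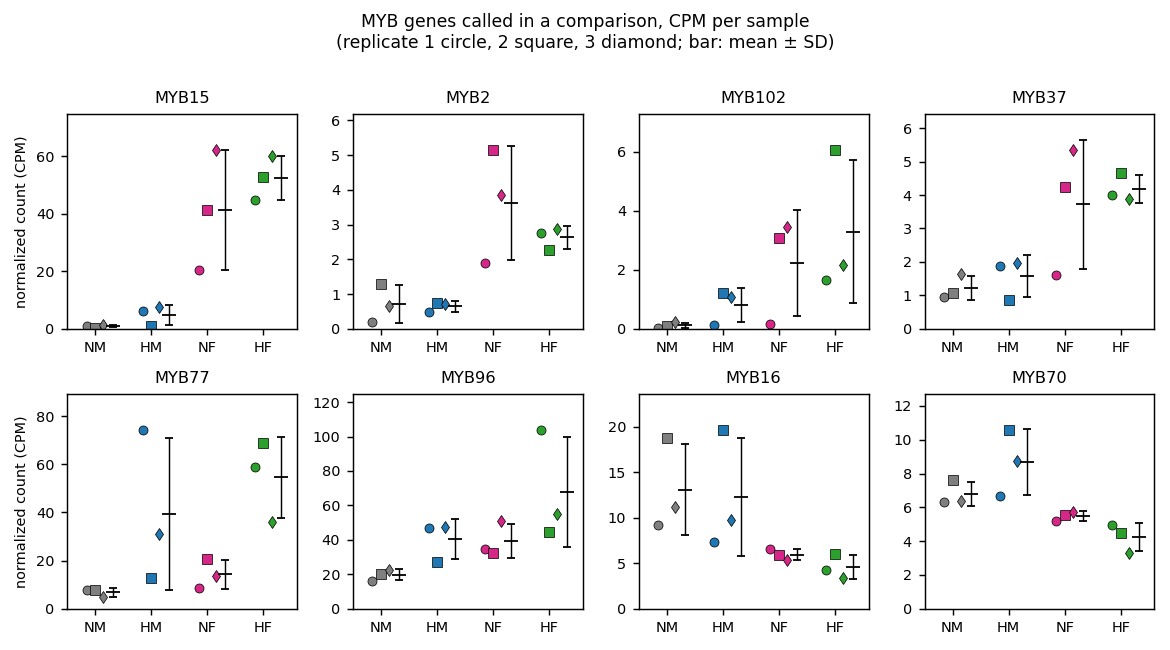
Normalized counts (CPM, linear axis from 0) of the 8 members called in a comparison, by group, with each replicate as a symbol and the mean ± SD (n = 3) beside it. MYB15, MYB2 and MYB37 are high in the flg22-treated groups, MYB77 in HF and in 1 HM sample at 74.4 CPM, and MYB16 is lowest in HF, at 3.41 to 6.01 CPM.

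In subgroup S22, whose members act in abscisic acid, auxin and stress responses, MYB77 had its highest levels under hypoxia. MYB77, which acts with auxin response factors in lateral root growth, was at 7.81, 7.71 and 4.83 CPM in NM, 74.4, 12.8 and 31.2 in HM, 8.68, 20.8 and 13.4 in NF and 59, 68.9 and 36.1 in HF. Every HM, NF and HF sample lay above every NM sample, and HM varied the most, with replicate 2 the lowest. MYB77 rose in HF vs NM (log2FC 3.01, SE 0.58, adjusted p = 0.00706), a call that held with each sample left out. In HM vs NM its log2FC was 2.54 (SE 0.57, adjusted p = 0.291). Without HM replicate 2, whose low value lowers this log2FC, MYB77 was called there (2.96, adjusted p = 0.0355), as were MYB15 and 0.27% of all genes. In NF vs NM its log2FC was 1.07 (adjusted p = 0.394).

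The other S22 members differed in their values. MYB73, the second highest member per transcript length in NM, was at 38.5, 32.4 and 30.2 CPM in NM, 69.6, 46.6 and 72 in HM, 39.1, 40.6 and 47.9 in NF and 73.5, 43.7 and 55.2 in HF. Every hypoxic sample lay above every NM sample, with log2FC of 0.90 in HM vs NM (adjusted p = 0.425) and 0.77 in HF vs NM (adjusted p = 0.0532). MYB70 was at 6.34, 7.62 and 6.38 CPM in NM, 6.7, 10.6 and 8.77 in HM, 5.18, 5.57 and 5.71 in NF and 4.94, 4.48 and 3.31 in HF. Its HF samples lay below those of all other groups, and it fell in HF vs HM (log2FC -1.03, SE 0.22, adjusted p = 0.0291). This call was lost without NM replicate 3, HM replicate 2 or 3, or HF replicate 2 or 3, with adjusted p up to 0.135. MYBR1 (MYB44), the remaining S22 gene, which lies outside the 63 by its symbol and is known to limit stomatal opening, was at 79.2, 129 and 103 CPM in NM, 379, 230 and 340 in HM, 72.8, 109 and 107 in NF and 352, 323 and 226 in HF. The hypoxic samples did not overlap with the normoxic ones. MYBR1 rose in HF vs NM (log2FC 1.53, SE 0.28, adjusted p = 0.00512), and its log2FC was 1.61 in HM vs NM (adjusted p = 0.159) and -0.11 in NF vs NM (adjusted p = 0.952). It was the only DEG, in HF vs NM, among the 8 genes with other MYB-like symbols (MYB3R-3, MYB3R-4, MYB3R-5, MYB3R2, MYB4R1, MYBC1, MYBL2 and MYBR1). Of these, MYB3R2 had a mean of 0.25 counts and was not tested.

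The 5 members of subgroup S1 regulate very-long-chain fatty acids and wax (MYB30, MYB94, MYB96) or stomata (MYB60). MYB96, an abscisic acid-responsive activator of wax synthesis, was at 16.3, 20 and 22.7 CPM in NM, 46.8, 27.1 and 47.7 in HM, 34.6, 32.5 and 50.7 in NF and 104, 44.4 and 55.3 in HF. Every treated sample lay above every NM sample, and HF replicate 1 was the highest. MYB96 rose in HF vs NM (log2FC 1.79, SE 0.34, adjusted p = 0.00669), a call that held with each sample left out, between a log2FC of 1.34 and 2.02. The single treatments gave log2FC of 1.04 (HM vs NM, adjusted p = 0.61) and 1.00 (NF vs NM, adjusted p = 0.126). Its interaction term, its log2FC for HF vs HM less that for NF vs NM, was -0.25 on the log2 scale (SE 0.47, unadjusted p = 0.601 in the edgeR fit).

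MYB94, the close relative of MYB96 that also activates wax genes, had values on the other side of NM after flg22. It was at 10.3, 13.7 and 13 CPM in NM, 10.2, 17.6 and 16.9 in HM, 7.86, 5.77 and 7.14 in NF and 7.94, 8.56 and 7.73 in HF. All flg22-treated samples lay below all mock samples, with a log2FC of -0.83 in NF vs NM (adjusted p = 0.0537), which was called with the replicate block (-0.81, adjusted p = 0.0368). MYB31 was at 1.66, 4.74 and 5.35 CPM in NM, 2.88, 5.32 and 8.41 in HM, 4.53, 14.1 and 35.7 in NF and 8.54, 12.5 and 18.7 in HF. The NM and NF ranges overlapped, but in each same-numbered pair NF was the higher, and the log2FC of 2.21 (adjusted p = 0.103) was called with the block (1.99, adjusted p = 0.00383). MYB30 had a log2FC of -0.62 in NF vs NM (adjusted p = 0.277) and -0.07 in HF vs NM (adjusted p = 0.947), and MYB60, a guard cell gene that favours stomatal opening, -0.44 and -0.54 (adjusted p = 0.544 and 0.311).

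**Figure D3:**
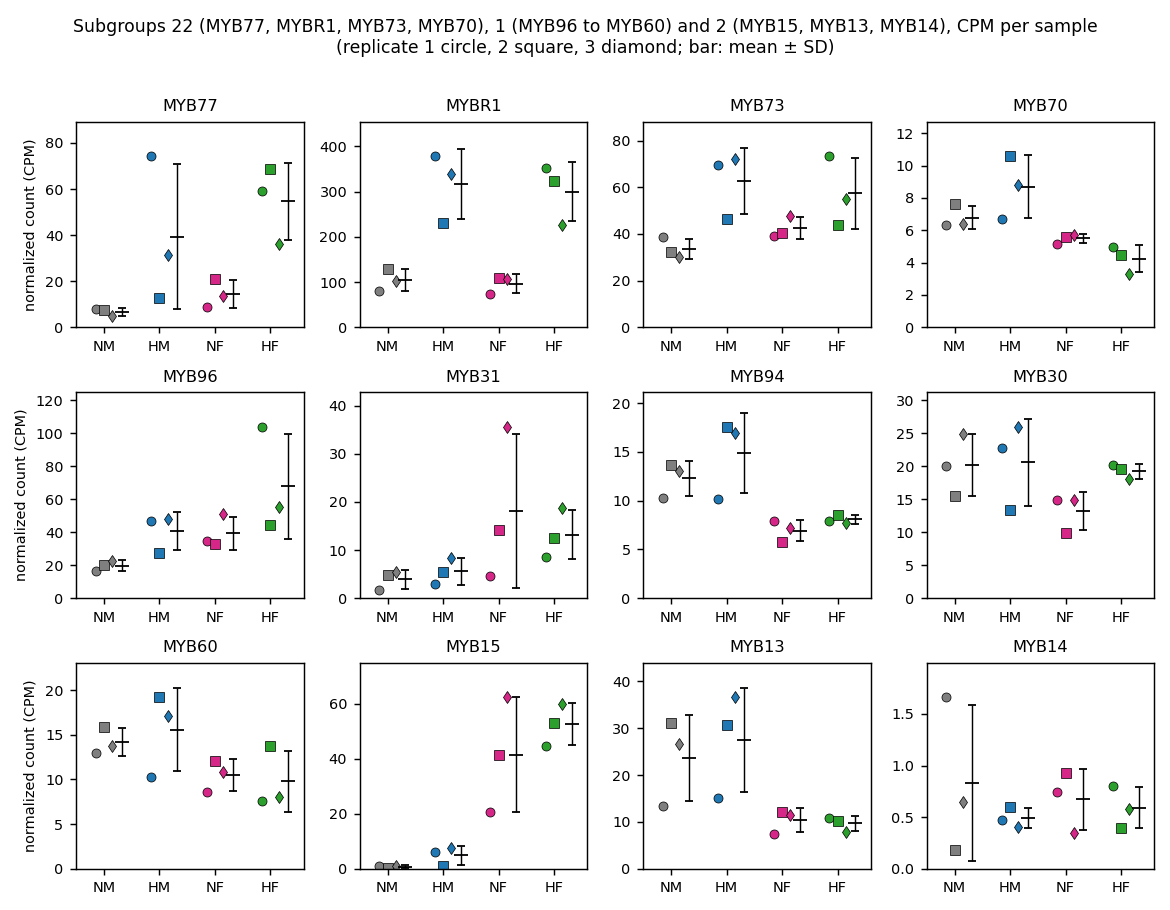
Normalized counts (CPM, linear axis from 0) by group for relatives in subgroups S22, S1 and S2, with each replicate as a symbol and the mean ± SD (n = 3) beside it. MYB77, MYBR1 and MYB73 are higher in the hypoxic groups, MYB15 in the flg22-treated groups and MYB96 in all treated groups, while MYB13 and MYB94 are lower in NF and HF than in NM.

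MYB16, a subgroup S9 regulator of cuticle and epidermal cell shape, was the only member called lower in HF vs NM. It was at 9.24, 18.8 and 11.2 CPM in NM, 7.34, 19.7 and 9.81 in HM, 6.54, 5.88 and 5.36 in NF and 4.29, 6.01 and 3.41 in HF. All flg22-treated samples lay below all mock samples, and replicate 2 was the highest of the mock samples in both NM and HM. MYB16 fell in HF vs NM (log2FC -1.52, SE 0.39, adjusted p = 0.0306), which was lost without NM replicate 2 or 3 or HF replicate 1 or 3 (adjusted p up to 0.123). In NF vs NM its log2FC was -1.14 (adjusted p = 0.127), called with the block (-1.05, adjusted p = 0.0274). MYB17 and MYB106 of the same subgroup had log2FC of -0.79 and -0.62 in HF vs NM (adjusted p = 0.213 and 0.709).

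With the replicate block, NF vs NM had 8 DEGs among the members instead of 2 (5 higher and 3 lower, against 11.5% of all genes, of which 9.08% higher and 2.45% lower), namely MYB2, MYB15, MYB31, MYB37 and MYB102 above NM and MYB13, MYB16 and MYB94 below it. For hypoxia alone, edgeR called no member without the block and none with it (0.0648% of all genes with it). An unadjusted p under 0.05 in HM vs NM in edgeR was found for 5 members, MYB77, MYB73, MYB15, MYB96 and MYB102, all of them higher (7.94% of members, against 3.88% of all genes that were higher and 5.93% in both directions). DESeq2 on all samples called MYB73, MYB77 and MYB15 (0.841% of all genes), and on the 2 groups compared only MYB77, with adjusted p available for 57 members (0.802% of all genes). DESeq2 with the replicate block called MYB73, MYB77 and MYB15, all higher (2.02% of all genes).

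The effect of hypoxia in flg22-treated seedlings (HF vs NF) was not called for any member in edgeR. At an unadjusted p under 0.05 there were 3 members, all higher (4.76% of members), against 2.3% of all genes that were higher and 4.94% in both directions. These were MYB77 (log2FC 1.94, SE 0.56, unadjusted p = 0.00537, adjusted p = 0.583), MYB96 (0.79) and MYB305 (2.57, at most 1.93 CPM in any sample, named after its values were seen). All HF samples of MYB77 lay above all of its NF samples. DESeq2 on all samples called no member in this comparison (0.522% of all genes), and on the 2 groups compared it called MYB77 alone (0.695% of all genes).

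For the effect of flg22 in hypoxic seedlings (HF vs HM), MYB15 rose (log2FC 3.42, SE 0.65, adjusted p = 0.0186) and MYB70 fell, as given above. Neither was called without HM replicate 3 or HF replicate 2 or 3, with adjusted p up to 0.0805 for MYB15. Whether the flg22 response differed between hypoxia and normoxia was tested as the interaction, which called no member and no gene (0.0%) in edgeR. An unadjusted p under 0.05 was found for 2 members, both lower (3.17% of members), against 0.902% of all genes that were lower and 1.13% in both directions, and no member was called by DESeq2 on all samples (0.0% of all genes). They were MYB15 (interaction -2.22 on the log2 scale, SE 0.89, unadjusted p = 0.0295) and MYB70 (-0.73, SE 0.31, unadjusted p = 0.0406). For MYB15, the log2FC of flg22 was thus 5.64 in normoxia and 3.42 in hypoxia, with HF and NF levels that overlapped (HF vs NF log2FC 0.35, adjusted p = 0.996).

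The order of the members by level, in CPM per kb of their longest transcript, differed between groups. In NM the levels ran from 0.0824 (MYB102) to 32.2 (MYB59), with a median of 1.54, and the highest were those of MYB59, MYB73 (25.7), MYB13 (22) and MYB96 (11.0). MYB59, a regulator of root growth and potassium and nitrate transport named here for its rank, was between 16.9 and 44.8 in the NM samples, a range that overlaps those of MYB73 and MYB13. In HF the highest were MYB73 (43.8), MYB96 (38.0), MYB15 (36.8) and MYB77 (31.8), so that MYB15 moved from rank 55 in NM to rank 3.

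**Figure D4:**
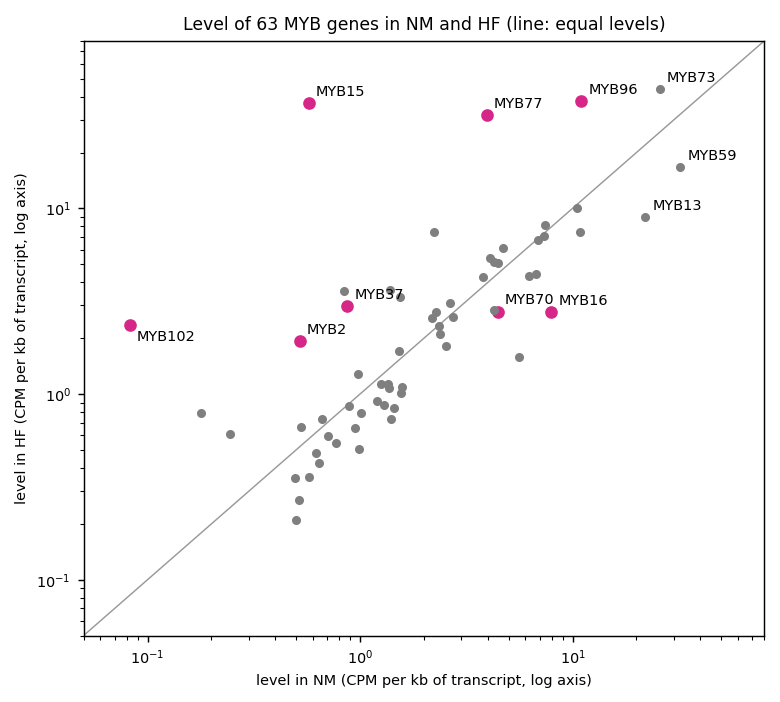
Mean level in NM (x) and in HF (y) of the 63 MYB genes, in CPM per kb of transcript on log axes, with a line at equal levels and the 8 called members in magenta. MYB15, at 0.573 in NM and 36.8 in HF, and MYB102, at the lowest NM level, lie farthest above the line.

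The genes of 3 pathways that MYB proteins regulate were described in the same fits. Of 17 wax genes tested, 1 was higher in NF vs NM, the long-chain acyl-CoA synthetase LACS3 (log2FC 1.79, adjusted p = 0.0356), and 1 lower in HF vs NM, the wax and cutin exporter ABCG11 (-0.86, adjusted p = 0.0218). The other wax genes were not called, and the median log2FC of the list was -0.03 for NF vs NM and -0.20 for HF vs NM. None of 12 flavonoid genes and none of 10 suberin genes was called in any of the 5 comparisons of groups. The suberin genes had a summed level of 190, 33.6 and 57.1 CPM in NM replicates 1 to 3, and replicate 1 was highest there as it was for the root markers.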

How the data were processed

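RNA was sequenced from 12 whole-seedling samples. The authors used SOAPnuke to filter read pairs and HISAT for alignment (build TAIR10 per the labels), and the deposited table gives 1 expected count, not normalized, for each gene and sample. Their DEGs came from DESeq2 at the cutoffs used here. The main fit here was made in edgeR instead, which called fewer genes than DESeq2 on all samples. The counting tool, annotation and use of strand are not given in the sources used here, so reads shared with close paralogs or antisense genes could not be examined. As 2.3% of the values were not whole, all were rounded, although whole counts had been assumed when the tests were set. The 4 deposited columns of group means were not used.

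All 23396 genes were matched by identifier to RefSeq (TAIR10.1). Counts were TMM-normalized (factors 0.828 to 1.23), filtered with filterByExpr at a minimum count of 10 and fitted in edgeR 4.0.16 (R 4.3.3) with 4 group means, the biological coefficient of variation being 0.362 (0.237 with the replicate block). The SE was computed as the absolute log2FC divided by the square root of F. CPM values are given on the effective library size, and with total counts this similar, depth was a limit for genes with few counts only. The groups and replicate numbers were taken from the labels. Deviations of same-numbered samples from their group means were correlated over genes. The r was 0.264 to 0.681 between NM and HM and 0.314 to 0.772 between NM and NF. Replicate 3 was not matched by number alone. HM and NF replicate 3 had r of 0.286 and 0.427 with NM replicate 2, above 0.264 and 0.314 with NM replicate 3. The main fit did not pair the samples, and the replicate number was used as a block in alternative fits only. The alternatives were DESeq2 1.42.0, fits of 2 groups, the replicate block, other scalings, no filter, no fold cutoff and each sample left out.

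The members, subgroups and gene lists (wax, flavonoid, suberin, leaf, root, seed, hypoxia and flg22 markers) were chosen with earlier results of these data known. Named genes were the members called in any comparison, their subgroup relatives, the 5 members with the smallest p in HM vs NM and called genes of the lists. Python 3.11.15 with pandas 2.3.3, numpy 2.4.6 and matplotlib 3.10.9 was used for the summaries and plots.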

Additional observations from a re-analysis of the deposited data

How the results depend on the processing

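The calls among the 63 members depended on the test more than on the filter. With DESeq2 on all samples, DESeq2 on the 2 groups compared and DESeq2 with the replicate block, in that order, the number called was 3, 1 and 3 in HM vs NM, 9, 11 and 14 for NF vs NM, 12, 12 and 18 for HF vs NM, 0, 1 and 2 in HF vs NF and 9, 8 and 13 in HF vs HM, against 0, 2, 6, 0 and 2 in the edgeR fit. In the same order these were 14.3%, 17.5% and 22.2% of the members for NF vs NM, against 9.14%, 8.91% and 13.5% of all genes. They were 19%, 19% and 28.6% for HF vs NM, against 13.5%, 12.9% and 18.6%, and 14.3%, 12.7% and 20.6% for HF vs HM, against 8.03%, 6.77% and 13.8%. For HF vs NF the all-gene shares were 0.522%, 0.695% and 1.63%. The members' share was thus above that of all genes in DESeq2 for NF vs NM, HF vs NM and HF vs HM, and below it in edgeR on all samples with TMM factors and no block. Whether the shares differ was not tested. The replicate block in edgeR gave 8 in NF vs NM, 13 in HF vs NM (20.6% of members, 16.7% of all genes) and 10 in HF vs HM (15.9% and 9.54%), and changed no other count. The block was fitted to all samples, so it treated HF replicates as paired by number with those of the other groups. The block counts, above all those of comparisons with HF, thus rest on a pairing that HF replicate 3 did not show. Replicate 3 of HM and of NF correlated no more with NM replicate 3 (r = 0.264 and 0.314) than with NM replicate 2 (0.286 and 0.427). HF replicates 1 and 2 correlated with same-numbered NM, HM and NF samples (r = 0.524, 0.465 and 0.541, and 0.583, 0.425 and 0.514), but HF replicate 3 did not (-0.00892, -0.0471 and -0.111). edgeR on the 2 groups compared gave 1 for NF vs NM (5.57% of all genes) and 0 for HF vs HM (1.5% of all genes). Scaling by library size only gave 5 both for NF vs NM and for HF vs HM, and all-gene DEGs that were higher made up 75.2% in NF vs NM, 46.2% in HF vs NM and 60.9% in HF vs HM, against 91%, 75.2% and 87.6%. When samples were left out singly, the number called was 0 to 2 in HM vs NM, 1 to 6 in NF vs NM, 3 to 8 in HF vs NM, 0 in HF vs NF and 0 to 6 in HF vs HM. The 6 in NF vs NM came without HM replicate 1 and without NF replicate 1, the 3 in HF vs NM without NM replicate 3, and the 6 in HF vs HM without HM replicate 1. The interaction called 0 members under every alternative that was run, and no member reversed its direction in a comparison in which it was called. The causes of these differences were not tested. With 3 samples a group and few counts for MYB2, MYB87 and MYB102, a change that was not called is not shown to be absent.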

Other observations

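Several members with few counts were highest in replicate 1, and this was seen only after their values were known. MYB10, known from iron-deficient roots, was at 2.64, 0.186 and 0.647 CPM in NM replicates 1 to 3 and at 2.51, 0.361 and 0.541 in NF. MYB9, a suberin regulator, was at 2.04, 0.465 and 0.474 CPM in NM and at 3.13, 0.464 and 0.886 in NF. Of the 18 members with the lowest mean counts, replicate 1 was highest for 12 (NM), 10 (HM), 12 (NF) and 10 (HF) within their groups. Over all 63 members it was highest for 31, 23, 27 and 24, and over all genes tested, at any level of counts, for 41.6%, 41.1%, 43.2% and 33.7%.

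MYB3, a repressor of phenylpropanoid genes in subgroup S4 that was chosen after its values were seen, was at 3.47, 12.1 and 6.73 CPM in NM, 1.76, 15.8 and 8.68 in HM, 2.22, 2.01 and 3 in NF and 2.2, 1.7 and 2.4 in HF. Its log2FC was -1.62 in NF vs NM (edgeR adjusted p = 0.223) and -1.82 in HF vs NM (adjusted p = 0.12).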
